A study of Mus musculus with 6 samples.

Results

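The 10 genes of the Slit, Robo and netrin guidance system were examined in the 2 compartments of the embryonic mouse bladder: the ligand genes Slit1, Slit2, Slit3, Ntn1 and Ntn4 and the receptor genes Robo1, Robo2, Unc5b, Unc5c and Dcc. The members were the probe sets of an Affymetrix MOE430 array whose single gene symbol was 1 of these 10, which gave 21 of the 45037 probe sets that were not controls. For each gene the probe set with the highest mean log2 signal stood for the gene, giving 10 of 18193 genes. The 3 mesenchyme arrays (replicates 1, 2 and 4) and the 3 urothelium arrays (replicates 5, 7 and 8) came from wild-type FVB/N embryos of unrecorded sex at embryonic day 13, Theiler stage 21. Both compartments came from bladders that were cut above the ureters and held in 20 µM EDTA for 20 minutes, and were parted with a needle rather than by a cell sort, so each may hold several cell types. Their RNA was amplified in 2 rounds. The labels give the samples as not pooled, and nothing says that each came from another embryo. The p-values therefore measure only the spread between these arrays, which may be technical.

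Slits are large secreted proteins that bind Robo receptors, and heparan sulfate proteoglycans on the cell surface assist that binding. In the nervous system they repel growing axons, and in the early kidney Slit2 and Robo2 limit where the ureteric bud forms. Netrins are secreted proteins related to laminins. Netrin-1 attracts axons through Dcc and repels them through Unc5 receptors, and netrin-4 is a component of basement membranes.

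Of the 10 guidance genes 4 were higher in mesenchyme, namely the ligand genes Slit3, Ntn4 and Slit2 and the netrin receptor gene Unc5c, and 0 were higher in urothelium. Slit3 differed most, by 3.78 ± 0.42 (SE) on the log2 scale, followed by Ntn4 (1.62 ± 0.38), Slit2 (1.13 ± 0.28) and Unc5c (0.92 ± 0.25). The other 6 genes were not past the test. Slit3 alone passed without mesenchyme 2 or without urothelium 7, and Slit3 and Ntn4 passed without urothelium 8 or with arrays centred on their medians. Among all genes tested 8.91% were higher in mesenchyme and 5.8% in urothelium. At an unadjusted p under 0.05, too, no member was higher in urothelium. A gene passed where limma's p, adjusted by the Benjamini-Hochberg method over 18193 genes, was under 0.05. Differences are mesenchyme minus urothelium in log2(signal + 45), a scale that understates the change of dim genes. The median difference was 0.36 over the 10 genes and 0.11 over all genes tested.

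**Figure D1:**
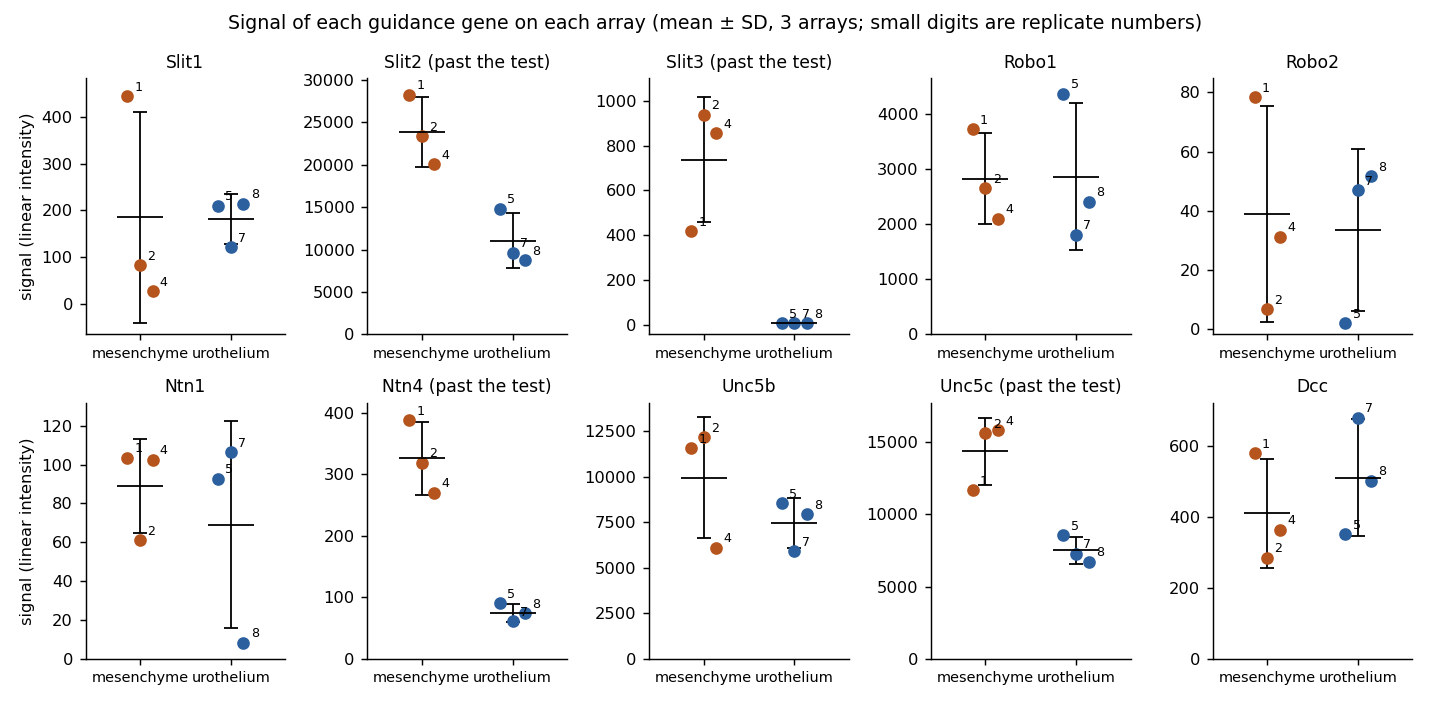
Signal (linear intensity, each panel with its own axis) of each guidance gene on the 3 mesenchyme and 3 urothelium arrays, with the mean and SD as black bars and replicate numbers beside the points. Slit2, Slit3, Ntn4 and Unc5c have no overlap between compartments; the other 6 genes overlap.

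The compartments of 4 guidance genes, those past the test, did not overlap, while 30.1% of all genes had no overlap in either direction.

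The compartments carried their own markers. All 11 mesenchyme markers, Cdh11, Pdgfra and the collagen genes among them, were higher in mesenchyme (summed signal 325747 to 376189 on mesenchyme arrays and 15201 to 17214 on urothelium arrays). All 11 urothelium markers, such as Cdh1, Krt8 and Shh, were higher in urothelium (8169 to 10863 on mesenchyme arrays and 438699 to 523974 on urothelium arrays). The mesenchyme arrays also held other cell types of that layer, with 11 of 11 endothelium markers, 6 of 7 smooth muscle markers and 4 of 7 macrophage markers higher there. Mesenchyme 1 and urothelium 5 stood apart by the 3' to 5' ratio of beta-actin signal, a measure of RNA length after amplification, which was 8.40 and 8.60 there and 2.29 to 4.89 elsewhere. Without these 2 arrays Slit2, Slit3, Ntn4 and Unc5c all passed again. In bulk tissue fewer cells of a type and less RNA per cell cannot be told apart.

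Slit3, which encodes a Slit expressed in many mesenchymal tissues, had signals of 418, 938 and 856 on mesenchyme arrays 1, 2 and 4, against 8.83, 8.77 and 9.31 on urothelium arrays 5, 7 and 8. The lowest mesenchyme value lay far above the highest urothelium value, and all 3 urothelium signals were below the constant of 45 added before the logarithm. The limma adjusted p was 0.000117, and the 95% confidence interval of the log2 difference ran from 2.85 to 4.72. Because the urothelium signals were so low, the size of the difference depended on the added constant, at 6.13 with a constant of 1 and 2.23 with 179. A single probe set measured it. It was past the test in all 13 alternatives that tested it. With no second probe set, the choice of probe set could not be varied, and no other probe set stands beside this difference. The alternative limited to genes above the median signal left it out.

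Slit2, the ligand best known for its action on Robo1 and Robo2, was read by 3 probe sets. The brightest had 28256, 23372 and 20069 on mesenchyme arrays 1, 2 and 4, against 14794, 9631 and 8729 on urothelium arrays 5, 7 and 8. The compartments did not overlap, the mesenchyme mean was 2.16 times the urothelium mean, and the adjusted p was 0.0194 (limma). The call was lost when arrays were centred on their medians (0.95) and without mesenchyme 2 (1.14), urothelium 7 (1.06) or urothelium 8 (0.98). The second probe set gave 1453, 1249 and 827 in mesenchyme against 216, 817 and 209 in urothelium. There urothelium 7 stood close to mesenchyme 4, and the difference of 1.63 ± 0.51 was not past the test over all probe sets (limma adjusted p = 0.0931). Without urothelium 7 it passed (2.21). The third had 554, 363 and 645 in mesenchyme against 462, 83.1 and 532 in urothelium, with overlap between the compartments (0.72 ± 0.59).

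Slit1, a Slit expressed mainly in the nervous system, did not pass the test. Its brighter probe set had 444, 83.4 and 27.8 on mesenchyme arrays 1, 2 and 4, against 210, 121 and 215 on urothelium arrays 5, 7 and 8. Mesenchyme 1 held the highest value and mesenchyme 4 the lowest of the 6, so the mesenchyme arrays spanned all urothelium values. The mean signals were 184.9 ± 225.7 and 181.7 ± 52.6 (SD, n = 3 each), while the log2 difference was −0.42 ± 0.63 with a 95% interval of −1.82 to 0.97. The second probe set showed the same spread, with 237 on mesenchyme 1 and 24.7 and 52.5 on the other mesenchyme arrays, against 136, 223 and 93.8 in urothelium. Among the mesenchyme arrays, mesenchyme 1 was the highest for 6 of 9 measured neural and glial markers and mesenchyme 4 for the other 3, Ngfr, Tubb3 and Fabp7, while mesenchyme 1 was the highest for 47.1% of all genes. Ngfr, a neurotrophin receptor gene, was lowest on mesenchyme 1, with 81.5, 190 and 218 on the mesenchyme arrays, against 11.3, 117 and 111 on the urothelium arrays. Stmn2, the gene of a protein that binds tubulin in growing axons, had 3059, 695 and 1131 on the mesenchyme arrays, against 289, 279 and 344 on the urothelium arrays. Of the 9 markers 2 were higher in mesenchyme and 2 in urothelium, and their summed signal was 2744 to 7977 in mesenchyme against 25358 to 30902 in urothelium. The urothelium sum came mostly from Erbb3, the gene of a neuregulin receptor, at 20455 to 25963, and the glial factor gene Sox10 was not past the test (−0.18 ± 0.47). The part of neural cells in the values of Slit1 was not tested.

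Ntn4, the gene of netrin-4, had 388, 319 and 270 on mesenchyme arrays 1, 2 and 4, against 90.4, 61.2 and 73.8 on urothelium arrays 5, 7 and 8. Every mesenchyme array lay above every urothelium array, and the mesenchyme mean was 4.34 times the urothelium mean (limma adjusted p = 0.0152, 95% interval of the log2 difference 0.77 to 2.47). Without mesenchyme 2 (1.63) or urothelium 7 (1.54) the call was lost. Its second probe set was very dim, with 19.6, 12.5 and 10.3 in mesenchyme against 5.13, 5.30 and 8.05 in urothelium. It too had no overlap, but all 6 signals were below 45 and the difference of 0.21 ± 0.19 was not past the test. Endothelial cells are a known source of netrin-4 in other organs. All 11 endothelium markers were also higher in mesenchyme (median difference 3.60, summed signal 23545 to 30891 in mesenchyme against 1509 to 2486 in urothelium). So were all 11 mesenchyme markers (median 4.94) and 6 of 7 smooth muscle markers (median of the 7, 4.81). The part of endothelial cells in the Ntn4 difference was not tested.

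Ntn1, the gene of netrin-1, was dim in both compartments. Its brighter probe set had 104, 61.0 and 103 on mesenchyme arrays 1, 2 and 4, against 92.8, 106 and 8.26 on urothelium arrays 5, 7 and 8, below the median signal of each array. The compartments overlapped, and the log2 difference was 0.35 ± 0.44 (95% interval −0.62 to 1.33, limma adjusted p = 0.703). The other probe set was also below the median signal of all 6 arrays, with 21.8, 148 and 65.7 against 58.4, 16.3 and 59.3. No detection calls were used, so a low signal here is not called absent.

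Among the receptors Unc5c passed the test. The gene encodes a netrin receptor with a death domain. Its brighter probe set had 11672, 15604 and 15803 on mesenchyme arrays 1, 2 and 4, against 8556, 7282 and 6711 on urothelium arrays 5, 7 and 8. The compartments did not overlap, and mesenchyme had 1.91 times the mean signal of urothelium (limma adjusted p = 0.0311, 95% interval 0.37 to 1.48). The second probe set gave 4469, 3034 and 3290 in mesenchyme against 1996, 1621 and 1639 in urothelium, a difference of 1.01 ± 0.29, also without overlap. When every probe set was tested by itself, neither was past the test (limma adjusted p = 0.0609 and 0.0639). The call of the gene was also lost with median centring (0.74), without the intensity trend (0.92), and without mesenchyme 2 (0.86), mesenchyme 4 (0.85), urothelium 7 (0.90) or urothelium 8 (0.85).

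Unc5b, a netrin receptor gene known from endothelial cells, had similar signals in both compartments. The values were 11574, 12164 and 6109 on mesenchyme arrays 1, 2 and 4, against 8557, 5902 and 7939 on urothelium arrays 5, 7 and 8. Mesenchyme 4 lay within the urothelium range, and the log2 difference was 0.37 ± 0.32 (95% interval −0.34 to 1.07, limma adjusted p = 0.554). Its second probe set overlapped as well (0.15 ± 0.45). The endothelium markers ranged from 1.36 (Eng) to 5.78 (Vwf), and the part of endothelial cells in the Unc5b values was not tested.

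Robo1, a Slit receptor gene, had 3719, 2651 and 2096 on mesenchyme arrays 1, 2 and 4, against 4361, 1810 and 2407 on urothelium arrays 5, 7 and 8. The highest and the lowest of the 6 values were both urothelium arrays. The log2 difference was 0.04 ± 0.37 (95% interval −0.78 to 0.86), opposite in sign to the difference of the mean signals, 2822 ± 825 and 2859 ± 1334 (SD, n = 3 each). Its sign turned with quantile normalization and with median centring. The other 2 probe sets of Robo1 pointed in different directions. The second brightest had 304, 299 and 164 in mesenchyme against 399, 593 and 402 in urothelium, and was the only 1 of the 21 with every urothelium array above every mesenchyme array (−0.78 ± 0.43). The third had 218, 260 and 75.1 against 124, 95.2 and 8.95 (0.97 ± 0.57). Neither was past the test.

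Robo2, the Slit receptor gene of ureteric bud positioning, was read by 1 dim probe set. Its signals of 78.5, 6.64 and 31.2 on mesenchyme arrays 1, 2 and 4, against 1.96, 47.0 and 51.6 on urothelium arrays 5, 7 and 8, were below the median signal of every array. The compartments overlapped (0.07 ± 0.40, 95% interval −0.81 to 0.96). The sign of the difference turned in 5 of 13 alternatives, median centring among them.

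Dcc, the netrin receptor gene of axon attraction, had 3 probe sets that did not move together. The one with the highest mean log2 signal had 581, 285 and 364 on mesenchyme arrays 1, 2 and 4, against 351, 680 and 502 on urothelium arrays 5, 7 and 8 (−0.30 ± 0.43, 95% interval −1.25 to 0.66). The second had 1115, 58.0 and 440 in mesenchyme against 139, 89.8 and 136 in urothelium. Its mesenchyme arrays held both the highest and the lowest of the 6 values (1.23 ± 0.76). The third was below the median signal of every array (−0.73 ± 0.48).

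**Figure D2:**
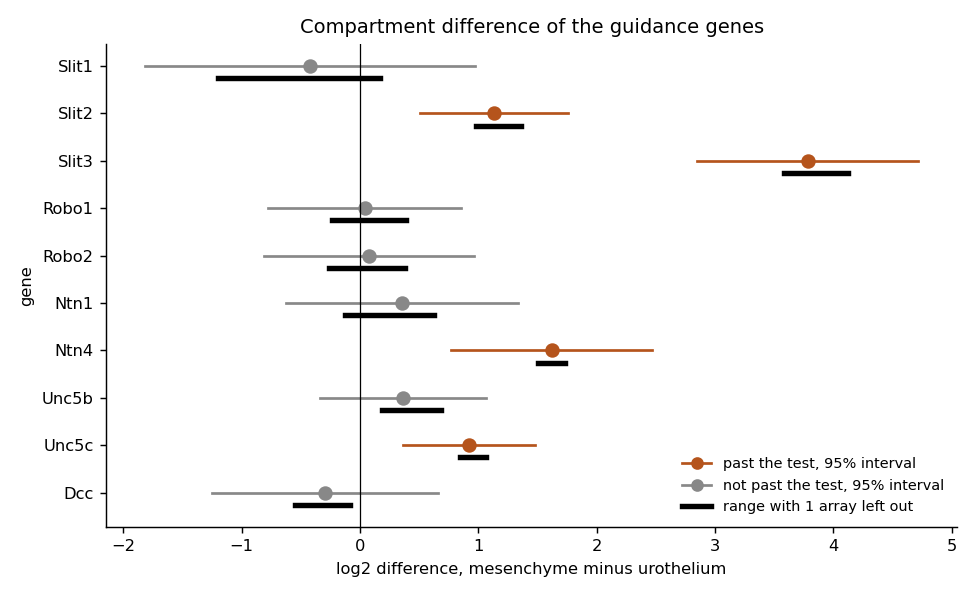
Log2 difference (mesenchyme minus urothelium) of each guidance gene with its 95% confidence interval, and below it, in black, the range of the value when each array in turn was left out. Slit3 lies at 3.78, apart from the other 9 genes, whose values run from −0.42 to 1.62.

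Over all 21 probe sets 16 had a positive and 5 a negative difference. Of these, 3 were past the test over all probe sets, 1 each for Slit2, Slit3 and Ntn4, all higher in mesenchyme, where 4.46% of all probe sets were (2.88% were higher in urothelium). The count was 1 without mesenchyme 2, mesenchyme 4 or urothelium 8. Of the 21, 7 had no overlap with mesenchyme higher and 1 with urothelium higher, against 23.1% of all probe sets with no overlap in either direction. Among the 8 genes with several probe sets, those of Robo1 and Dcc differed in sign and those of the other 6 did not.

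**Figure D3:**
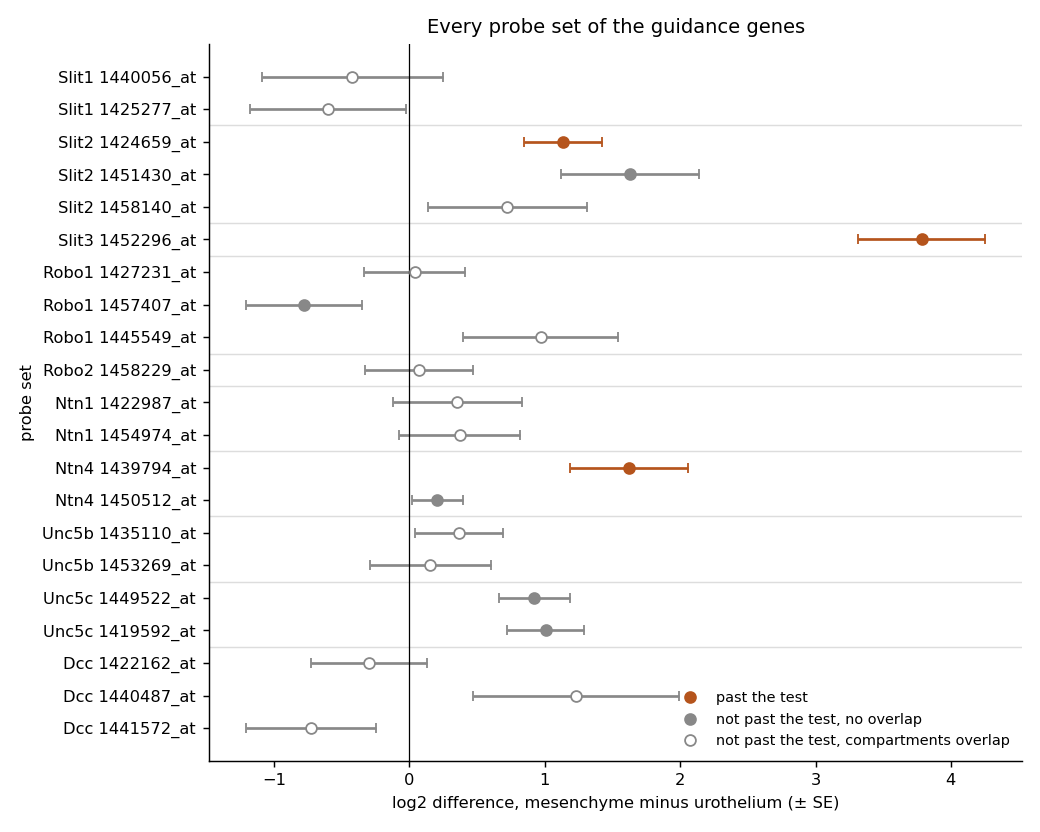
Log2 difference (mesenchyme minus urothelium, ± SE) of all 21 probe sets, ordered by gene and within a gene by mean log2 signal. Filled points mark probe sets whose compartments do not overlap; the probe sets of Slit2, Unc5c and Ntn4 lie on the positive side, while those of Robo1 and Dcc lie on both.

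The 4 genes past the test differed in how much signal the urothelium arrays kept. The urothelium mean was 1.22% of the mesenchyme mean for Slit3, 23.1% for Ntn4, 46.2% for Slit2 and 52.3% for Unc5c. For the 11 mesenchyme markers the same share was 1.12% to 7.26%, with a median of 3.39%. It was 0.432% to 37.3% for the 11 endothelium markers and 0.823% to 97.9% for the 7 smooth muscle markers. Ntn4, Slit2 and Unc5c lay above all 11 mesenchyme markers, but Ntn4 lay within the endothelium range, and 1 smooth muscle marker lay above all 3. That marker, Des, had means of 222 in mesenchyme and 217 in urothelium and was not past the test. The next highest smooth muscle marker, Acta2, kept 4.89%. The share of Slit3 is not exact, since its urothelium signals were all below 45. With its urothelium mean set to 45 the share would be 6.10%. In the other direction the urothelium markers kept 0.183% to 7.45% of their urothelium signal in the mesenchyme arrays. These are shares within a probe set, and background signal raises them for dim probe sets such as that of Ntn4.

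**Figure D4:**
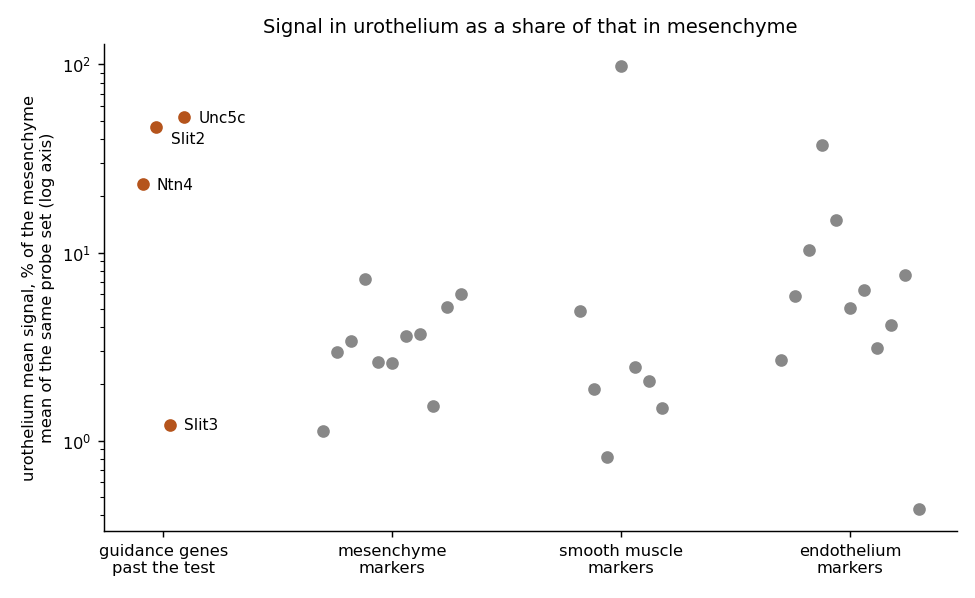
Urothelium mean signal as a percentage of the mesenchyme mean of the same probe set (log axis) for the 4 guidance genes past the test and for each mesenchyme, smooth muscle and endothelium marker. Ntn4 (23.1%), Slit2 (46.2%) and Unc5c (52.3%) sit above the mesenchyme markers. The smooth muscle marker Des (97.9%), itself not past the test, sits above all 3. The point of Slit3 (1.22%) rests on urothelium signals below 45.

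The promoters of these 4 genes are shown because the genes were higher in the same compartment. RefSeq's GRCm38.p6 table held a promoter window for 7 of the 10 guidance genes and for all 4 of these, each 300 bases long from 250 before to 50 after an annotated transcript start. The search covered, on both strands, the TATA box with the letters TATAAA, the GC box with GGGCGG, the CCAAT box with those letters, the E-box with CAGGTG and the Gli motif with TGGGTGGTC. Capitals mark every match, and overlapping matches run together.
Slit2 (chr5:47982905-47983204, plus strand): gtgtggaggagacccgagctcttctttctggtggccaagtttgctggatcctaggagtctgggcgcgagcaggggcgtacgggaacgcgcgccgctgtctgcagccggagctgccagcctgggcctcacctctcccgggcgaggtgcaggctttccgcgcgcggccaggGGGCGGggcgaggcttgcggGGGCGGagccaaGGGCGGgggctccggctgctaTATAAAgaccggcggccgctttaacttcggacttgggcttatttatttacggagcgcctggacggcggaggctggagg
Slit3 (chr11:35121206-35121505, plus strand): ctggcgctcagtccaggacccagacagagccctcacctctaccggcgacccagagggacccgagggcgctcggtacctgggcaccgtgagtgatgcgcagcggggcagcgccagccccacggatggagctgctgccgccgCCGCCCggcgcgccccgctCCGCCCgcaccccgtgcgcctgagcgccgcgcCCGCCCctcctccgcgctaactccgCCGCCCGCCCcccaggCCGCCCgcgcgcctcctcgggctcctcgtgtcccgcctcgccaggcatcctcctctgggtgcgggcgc
Ntn4 (chr10:93640799-93641098, plus strand): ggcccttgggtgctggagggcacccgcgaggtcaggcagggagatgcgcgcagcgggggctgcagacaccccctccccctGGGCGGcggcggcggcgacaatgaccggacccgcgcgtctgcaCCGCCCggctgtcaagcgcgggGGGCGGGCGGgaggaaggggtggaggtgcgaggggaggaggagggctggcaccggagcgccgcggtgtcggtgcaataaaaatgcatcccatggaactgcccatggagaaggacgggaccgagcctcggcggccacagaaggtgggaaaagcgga
Unc5c (chr3:141465314-141465613, plus strand): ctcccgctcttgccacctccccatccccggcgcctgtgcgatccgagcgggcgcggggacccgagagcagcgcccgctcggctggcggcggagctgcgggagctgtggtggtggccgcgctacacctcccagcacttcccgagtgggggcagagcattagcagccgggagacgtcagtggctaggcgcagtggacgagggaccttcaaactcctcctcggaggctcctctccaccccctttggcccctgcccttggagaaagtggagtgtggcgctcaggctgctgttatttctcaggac
Slit2 held TATAAA once, from position 223 of its window, and GGGCGG at 3 places. The GC box was found at 6 places for Slit3, all on the opposite strand, and at 4 places for Ntn4. Unc5c matched none of the 5 motifs, and none of the 4 windows held the CCAAT box, the E-box or the Gli motif. Of all 32851 windows that RefSeq listed, 13.6% held the TATA box, 35.7% the GC box, 37.4% the CCAAT box, 20.2% the E-box and 0.253% the Gli motif. The windows were rich in G and C, from 68.0% (Slit2) to 78.3% (Slit3). A match is a description of these letters only.

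Other ligands and receptors of the same systems were higher in mesenchyme for 5 of 20 measured genes and in urothelium for 0, with a median difference of 0.40. The shares over all genes tested were 8.91% and 5.8%. The count was 3 without mesenchyme 2, mesenchyme 4 or urothelium 7. Mcam, which encodes a cell adhesion molecule that also binds netrin-1, had 2714, 1626 and 1332 on mesenchyme arrays 1, 2 and 4, against 30.0, 18.3 and 15.2 on urothelium arrays 5, 7 and 8 (4.81 ± 0.42, limma adjusted p = 2.52e-05). Ntng1, the gene of the membrane-anchored netrin-G1, differed by 3.69 ± 0.57, but its signal was 2109 on mesenchyme 1 and 813 and 484 on the other mesenchyme arrays, against 82.1, 21.5 and 8.79 in urothelium. Its other 3 probe sets were not past the test, and the next brightest had a difference of −0.31. Flrt2, whose protein binds Unc5 receptors, had 13894, 11894 and 13268 in mesenchyme against 2974, 2618 and 2857 in urothelium (2.19 ± 0.24), a narrow spread within each compartment. Robo4, the Robo receptor gene of endothelial cells, had 631, 816 and 616 against 184, 138 and 235 (1.68 ± 0.40). Its call was lost without mesenchyme 2 (1.56), mesenchyme 4 (1.75) or urothelium 7 (1.52). The endothelium markers, like the mesenchyme markers, were also higher in mesenchyme. The part of endothelial cells in the Robo4 and Mcam differences was not tested. Rgmb, the gene of a neogenin ligand, was the remaining member past the test (1.14 ± 0.33) and is named here after its value was seen.

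Neo1, which encodes neogenin, a receptor of netrins and repulsive guidance molecules, had 15008, 28429 and 29529 in mesenchyme against 18179, 22617 and 14924 in urothelium. The compartments overlapped (0.35 ± 0.32, limma adjusted p = 0.580). Its second probe set had 17806, 13583 and 10588 against 7164, 5284 and 4284, without overlap, and was past the test over all probe sets (1.32 ± 0.30, limma adjusted p = 0.0225). The third went the other way, also without overlap, with 576, 618 and 407 in mesenchyme against 1029, 906 and 721 in urothelium, and was not past the test (−0.69 ± 0.35). The remaining 2 were dim, overlapped and were not past the test (−0.32 ± 0.57 and 0.50 ± 0.42). Unc5a was not past the test (−0.35 ± 0.40).

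Of 32 measured effectors inside the cell 2 were higher in mesenchyme and 2 in urothelium, with a median of 0.08. Over all genes tested 8.91% were higher in mesenchyme and 5.8% in urothelium. Fyn, a kinase that acts below Dcc, had 6933, 2535 and 3325 in mesenchyme against 1250, 1019 and 648 in urothelium (2.00 ± 0.41). Cables1, the gene of an adaptor that binds the kinase Abl, had 1570, 1974 and 1375 against 538, 498 and 415 (1.66 ± 0.34). Srgap3, a GTPase-activating protein that binds Robo receptors, had 567, 978 and 1290 in mesenchyme against 1764, 2070 and 2754 in urothelium (−1.23 ± 0.37). Dapk1, the death-associated kinase that binds Unc5b, had 513, 1455 and 1919 against 3243, 3370 and 3100 (−1.48 ± 0.43). The adjusted p of the last 2 was close to the threshold, 0.0499 for Srgap3 and 0.0440 for Dapk1 (limma), and 0 effectors were higher in urothelium without mesenchyme 2, urothelium 5, urothelium 7 or urothelium 8 and 1 without mesenchyme 1. The second probe sets of Srgap3 (0.010) and Dapk1 (0.31) had the opposite sign. Rac1, Cdc42 and Rhoa, the GTPases at the end of these pathways, were not past the test, with differences of −0.013 to −0.29.

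Of 18 measured partners in the matrix and on the cell surface, 1 was higher in mesenchyme and 4 in urothelium, with a median of −0.37. For all genes tested the shares were 8.91% in mesenchyme and 5.8% in urothelium. Without mesenchyme 2 or urothelium 7 the count in urothelium was 2. Sdc4 and Sdc2, the genes of 2 syndecans that carry heparan sulfate, went in opposite directions. Sdc4 had 1955, 1198 and 1313 in mesenchyme against 14617, 12905 and 9787 in urothelium (−3.04 ± 0.29), and Sdc2 had 16145, 11164 and 9964 against 7195, 3949 and 2996 (1.46 ± 0.35). The call of Sdc2 was lost without mesenchyme 1, urothelium 7 or urothelium 8. Itga6, an integrin gene whose product binds laminins and netrins, was higher in urothelium (−1.61 ± 0.27). So were the laminin chain gene Lama5 (−1.54 ± 0.37) and Dag1 (−0.98 ± 0.23), the gene of dystroglycan, which binds Slits. Of the 4 genes, Sdc4 and Itga6 stayed past the test when any 1 array was left out. With the probe sets of a gene averaged, Lama5 (−0.97, limma adjusted p = 0.142), Dag1 (−0.39, 0.451) and Sdc2 (0.82, 0.0898) were no longer past the test. The other 3 probe sets of Dag1 had differences of −0.53, −0.084 and 0.043. The second probe set of Itga6 was not past the test either (−1.32 ± 0.66), whereas that of Sdc4 was (−2.37 ± 0.45). Lamc1, the gene of the laminin chain that binds netrin-4, ranged from 688 to 7681 in mesenchyme and from 130 to 3502 in urothelium and was not past the test (1.54 ± 1.02).

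**Figure D5:**
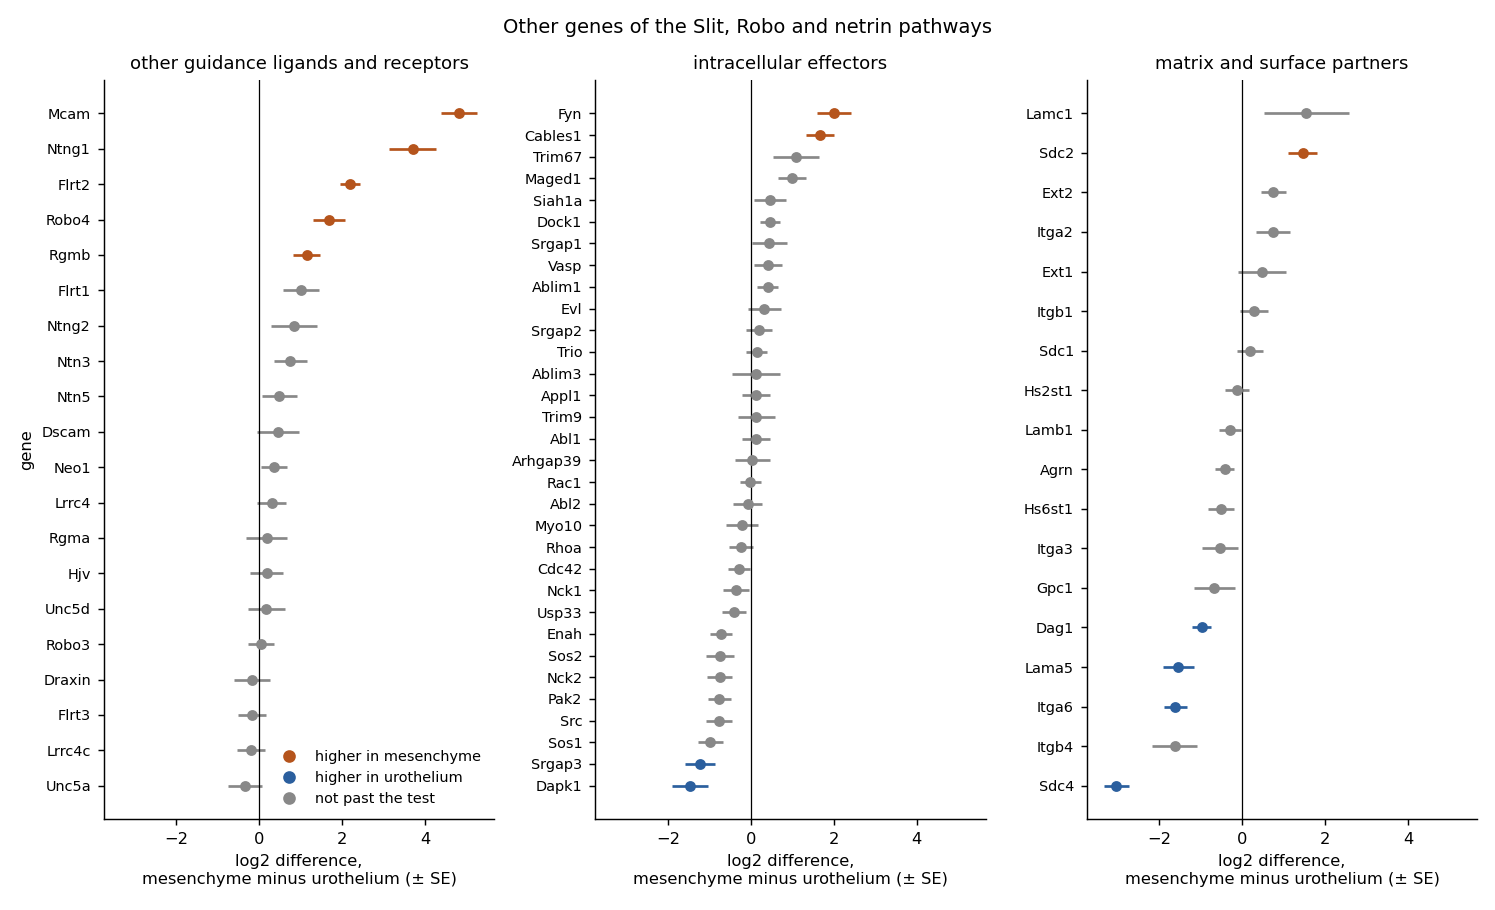
Log2 difference (mesenchyme minus urothelium, ± SE) of the other pathway genes in 3 lists, coloured by whether the gene was past the test. All 5 coloured genes of the ligand and receptor list are higher in mesenchyme, the effectors have 2 in each direction, and the matrix and surface list has 4 higher in urothelium and 1 higher in mesenchyme.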

How the data were processed

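The authors deposited 1 linear array intensity per probe set and array, made with GCOS, Affymetrix's operating software, per the submitters' processing notes; its version and algorithm, not given in the sources used here, remain unknown. The trimmed mean (2% at each end) was 1500 on every array, so signals were not scaled again. Of 45101 probe sets 64 were controls, 34945 had 1 gene symbol in the platform annotation, 932 several and 9160 none. All 21 probe sets of the guidance genes matched the RefSeq symbol by Entrez identifier. Signals were transformed as log2(signal + 45), 45 being the 25th percentile of all values. Mesenchyme and urothelium were compared over all genes with limma 3.58.1 in R 4.3.3 (lmFit, eBayes with an intensity trend), and again over 45037 probe sets. The fit was tested on simulated data with independent noise and no array effects, so that run says nothing about differences between these arrays. The number of arrays limits the precision.

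The members and lists were chosen with earlier results of these data known. All members were named, and of each pathway list up to 4 genes past the test in each direction with the largest difference, with Robo4, Neo1 and Unc5a added. Rgmb, Rac1, Cdc42, Rhoa, Lamc1, Abl1, Dscam and Trim67 were named outside this rule. Lists had no set test. Pak1, Ptk2 and Ndst1 lacked a probe set of their own.

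Alternatives were constants of 1 and 179, quantile normalization, median centring, array weights, leaving out dim genes or the intensity trend, other probe sets of a gene, and leaving out arrays. The samples used here have no batch label.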

Additional observations from a re-analysis of the deposited data

How the results depend on the processing

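No paired analysis was possible because the labels give mesenchyme and urothelium no replicate number in common. Of the 4 guidance genes higher in mesenchyme, 2 passed with arrays centred on their medians, 2 among genes above the median signal (where Slit3 and Ntn4 were not tested), 1 with the second brightest probe set (Slit3, which has no second), and 1 to 4 with 1 array left out; the lowest count came without mesenchyme 2 or urothelium 7. Of 3 probe sets past the test, 1 remained in number with centring, 5 passed with array weights, and 1 to 2 with 1 array left out. The count of guidance genes and probe sets higher in urothelium was 0 throughout. Centring moved the median of all genes to −0.078, against 0.11 as reported, and array weights gave 2996 genes higher in mesenchyme and 2055 in urothelium, against 1621 and 1055; the second brightest probe sets gave 1029 and 593. Without urothelium 7 there were 1138 and 660.

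The 5 other ligands and receptors became 2 among genes above the median signal (where Mcam, Ntng1 and Robo4 were not tested). They were 3 in the mean of probe sets and 3 to 5 with 1 array left out. Effectors higher in mesenchyme (2) were 5 with array weights, 1 with the second brightest probe set, 4 without both mesenchyme 1 and urothelium 5, and 2 to 3 with 1 array left out. Effectors higher in urothelium (2) were 0 with a constant of 179, without the intensity trend, with the second brightest probe set and when probe sets were averaged. They were 5 with array weights, 1 without both mesenchyme 1 and urothelium 5, and 0 to 2 with 1 array left out. The matrix and surface gene higher in mesenchyme (1) was lost (0) with centring, when probe sets were averaged and with the second brightest probe set, and 3 passed with array weights; the range was 0 to 1 with 1 array left out. Those higher in urothelium (4) were 2 in the mean of probe sets, 1 with the second brightest probe set and 2 to 5 with 1 array left out.

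Signs turned only for differences not past the test or in another probe set. Robo1 became −0.024 with quantile normalization, −0.15 with centring and −0.78 in its second probe set (−0.24 to 0.39 with 1 array left out). Robo2 became −0.11 with centring, −0.39 with array weights and −0.59 when mesenchyme 1 and urothelium 5 were left out (−0.26 to 0.38). Dcc became 0.069 in the mean of its probe sets and 1.23 in the second. With 1 array left out Slit1 ran from −1.20 to 0.17 and Ntn1 from −0.12 to 0.63. The second probe set of Ntn1 ran from −0.018 to 0.75, and that of Unc5b from −0.018 to 0.298, with −0.061 after quantile normalization and −0.033 after centring. In their second probe sets Dapk1 was 0.31, Ntng1 −0.31 and Srgap3 0.010. The cause of these changes was not tested. Of the 529 gene and probe set values recomputed under alternatives (the choice of probe set left out for genes with 1), 448 kept their direction and their side of the threshold. That count is not a measure of how stable the calls were. Many of the values were not past the test to begin with, and leaving out dim genes or the intensity trend cannot change a difference.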

Other observations

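Within the mesenchyme arrays, mesenchyme 1 held the highest signal for 13 of the 21 probe sets of the guidance genes (61.9%). With 1 probe set per gene it was the highest for 7 of the 10 guidance genes. On that basis it was also the highest for 6 of 9 neural and glial markers and for 47.1% of all genes. Elavl4, the gene of a neuronal RNA-binding protein, had 2253 on mesenchyme 1 and 626 and 932 on mesenchyme 2 and 4, against 432, 106 and 429 on the urothelium arrays. Among pathway genes that were not past the test, Dscam had 659 on mesenchyme 1, against 208 and 190 on the other mesenchyme arrays and 171 to 247 in urothelium. Trim67 had 296, 15.9 and 162 in mesenchyme, against 22.7 to 37.7 in urothelium. Other pathway genes not past the test were lowest on mesenchyme 1 among the mesenchyme arrays. Abl1 had 3722 there and 8194 and 9247 on mesenchyme 2 and 4, and Lamc1 had 688 there and 7681 and 2674. Mesenchyme 1 also had the highest median signal of the 6 arrays, 240 against 132 to 192 on the others. Elavl4, Dscam, Trim67, Abl1 and Lamc1 are named here after their values were seen. Mesenchyme 4 was the highest mesenchyme array for the other 3 neural and glial markers, Ngfr, Tubb3 and Fabp7.

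Ret, whose product is the receptor of the GDNF family, stands in the list of neural and glial markers and was higher in urothelium, with 508, 105 and 337 on the mesenchyme arrays against 3594, 3347 and 3666 on the urothelium arrays. Erbb3 of the same list was also higher there (−5.10 ± 0.28). Both are named here after their values were seen. Of 5 mesothelium markers 3 were higher in mesenchyme, namely Wt1 (3.19 ± 0.40), Lrrn4 (3.02 ± 0.46) and Gpm6a (2.07 ± 0.59). Msln was higher in urothelium (−5.16 ± 0.48), and Upk3b was not past the test (−0.18 ± 0.58).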
